A study of Homo sapiens with 6 samples.

Results

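The ERBB receptors and the EGF-family ligands that bind them were examined in SW480 cells, an established line from a human colorectal adenocarcinoma, made to express POU5F1B. The genes were chosen by symbol, as the 4 receptors EGFR, ERBB2, ERBB3 and ERBB4 and the 6 ligands EREG, AREG, TGFA, HBEGF, BTC and EGF, and these 10 genes were all found among the 63677 identifiers of the count tables. Cells had been transduced with a vector that expresses POU5F1B, a retrogene copy of the pluripotency factor gene POU5F1, or GFP, a fluorescent protein used as the control, from a promoter that doxycycline turns on. Both groups received doxycycline at 1 µg/mL for 72 h and both were grown with serum, so what differed by label was the transgene alone. PolyA RNA was sequenced from 3 GFP and 3 POU5F1B libraries. The labels do not say that the 3 libraries of a group came from separate cultures or transductions, so p-values measure only the spread between these libraries, which may be technical.

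ERBB receptors are tyrosine kinases of the cell surface that work in pairs. A ligand bound to EGFR, ERBB3 or ERBB4 opens the receptor for pairing, ERBB2 has no known ligand of its own and serves as the preferred partner, and ERBB3 has a kinase domain with little activity and signals through the partner that phosphorylates it. The ligands are made as membrane-bound precursors that proteases cut free, and the paired receptors drive the RAS-ERK and PI3K cascades. In the colon this system supports growth of the epithelium, and EREG and AREG are well known as EGFR ligands that many colorectal cancers express.

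Depth was 10767947 to 12787637 counts per library, and a count of 3 was worth 0.235 to 0.279 CPM, a unit that divides each count by its library's scaled size so that libraries can be compared. GFP replicates 1 to 3 held 6, 5 and 1 counts of POU5F1B itself, POU5F1B replicates 1 to 3 held 15027, 11393 and 1458, so every library matched its label, with the lowest transgene level in POU5F1B replicate 3. Both libraries numbered 3 stood apart. Pairs of GFP libraries differed by a coefficient of variation of 8.03% between replicates 1 and 2, but by 44.3% and 40.9% where replicate 3 was one of the pair. Among POU5F1B libraries the same values were 9.84%, 21.1% and 24.1%. Of 9 colorectal epithelial marker genes, 7 to 9 had a count in each library, at a summed 6365 to 9586 CPM in GFP and 7909 to 8932 CPM in POU5F1B libraries. CDH17, an intestinal cadherin, had 0, 0 and 77 counts in GFP and 0, 1 and 24 in POU5F1B libraries. Markers of other cell types, of which 10 were matched and 3 to 9 had a count, summed to 25.6 to 149 CPM in GFP and 10.6 to 16.0 CPM in POU5F1B libraries, mostly from the collagen gene COL1A1. Most other such markers were at or near 0, but the liver gene ALB had 43 counts in GFP replicate 3 and 37 in POU5F1B replicate 3, and 0 in the other 4 libraries. Because the libraries numbered 3 differ in these ways, the members tested are given for all 6 libraries and for replicates 1 and 2 only. For other genes and lists, values are from all 6 libraries unless replicates 1 and 2 are named.

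EREG, AREG and BTC lie within 546 kb of each other on chromosome 4 (the stretch from EPGN to BTC, 4:75174187-75719733 in GRCh37), next to EPGN, another ligand gene, which had 0 counts in all 6 libraries. The promoters of these 3 genes are shown because their counts moved together between libraries, as described further on. Each sequence holds the 250 bases before the transcript start in the RefSeq promoter table (GRCh38.p14), read 5′ to 3′ on the gene's strand, at chr4:74364895-74365144 on the plus strand for EREG, chr4:74444886-74445135 on the plus strand for AREG and chr4:74794524-74794773 on the minus strand for BTC. Capitals mark a TATA box (TATAAA) and a cyclic AMP response element (TGACGTCA).
EREG: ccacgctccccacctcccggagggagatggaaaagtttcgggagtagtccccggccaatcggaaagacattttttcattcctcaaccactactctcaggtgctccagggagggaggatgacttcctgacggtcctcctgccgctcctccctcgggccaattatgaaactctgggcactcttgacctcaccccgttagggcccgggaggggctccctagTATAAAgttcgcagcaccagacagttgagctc
AREG: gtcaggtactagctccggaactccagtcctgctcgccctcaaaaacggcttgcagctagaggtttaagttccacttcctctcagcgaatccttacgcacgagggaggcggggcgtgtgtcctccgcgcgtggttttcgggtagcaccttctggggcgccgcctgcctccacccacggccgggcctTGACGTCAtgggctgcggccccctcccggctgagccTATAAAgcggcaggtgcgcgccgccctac
BTC: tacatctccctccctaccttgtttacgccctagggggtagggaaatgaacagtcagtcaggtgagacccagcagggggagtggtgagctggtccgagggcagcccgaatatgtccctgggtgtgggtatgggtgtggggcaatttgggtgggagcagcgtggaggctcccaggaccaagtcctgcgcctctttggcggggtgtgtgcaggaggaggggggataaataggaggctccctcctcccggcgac

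The EREG promoter held TATAAA starting 32 bases before the transcript start. The AREG promoter held TATAAA at 29 bases and TGACGTCA at 65 bases before the start. BTC held neither. Searched on both strands in the 35116 promoters of the table, TATAAA was present in 10.7% and TGACGTCA in 1.65%. The octamer ATGCAAAT, the DNA element that OCT factors such as OCT4 are named for recognising, occurred in 1.63% of all promoters and in 0 of the 11 promoters of the 9 members listed there. ERBB3 had no entry. TATAAA was also found in a promoter of EGFR, the AP-1 element TGAGTCA, present in 4.20% of all promoters, was found for EGFR and EGF, and the GC box GGGCGG, present in 42.6%, for EGFR, ERBB4, HBEGF, TGFA and AREG. No motif searched holds another within its letters. All but the octamer were chosen after the counts had been seen, and a match describes the letters only.

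EGFR and ERBB3 RNA was higher in each of the 3 POU5F1B libraries than in any GFP library, ERBB2 overlapped between the groups, and ERBB4 was not detected. Of all tested genes, 10.2% lay wholly higher in POU5F1B libraries, as EGFR and ERBB3 did. Across all 6 libraries none of the receptor differences passed the adjusted threshold. Within replicates 1 and 2, EGFR and ERBB3 had an adjusted p under 0.05, as 29.7% of all genes did. ERBB3 also rose by more than 2-fold there, and 3.21% of all genes were called higher in that way. In bulk RNA, more cells expressing a gene and more RNA per cell cannot be told apart.

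EGFR (ENSG00000146648, 7:55086710-55279321 on the plus strand, GRCh37), the receptor for all 6 ligands examined, stood at 201.6, 200.1 and 125.6 CPM in GFP replicates 1, 2 and 3 and at 330.0, 312.4 and 247.0 CPM in the POU5F1B replicates. The lowest POU5F1B library was above the highest GFP library, and replicate 3 was the lowest of its group on both sides. The group means were 176 ± 43.4 and 296 ± 43.7 CPM (SD, n = 3 each). The log2 fold change was 0.77 ± 0.22 (SE), with a 95% interval of 0.26 to 1.29, and an adjusted p of 0.282 by limma voom with Benjamini-Hochberg adjustment over 14286 genes. Within replicates 1 and 2, it was 0.67 ± 0.077 with an adjusted p of 5.17e-05, and the interval of 0.50 to 0.83 stayed under 2-fold, a log2 value of 1.

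ERBB3 (ENSG00000065361, 12:56470583-56497289 on the plus strand), a receptor for neuregulins, was at 30.6, 32.8 and 64.7 CPM in GFP and 91.9, 80.9 and 70.1 CPM in POU5F1B libraries. The groups did not overlap, but GFP replicate 3 held 2.04 times the mean of GFP replicates 1 and 2 and came close to POU5F1B replicate 3. The means were 42.7 ± 19.1 and 81.0 ± 10.9 CPM (SD, n = 3 each). This gave a log2 fold change of 1.01 ± 0.28 with an interval of 0.34 to 1.68 and an adjusted p of 0.285 by limma voom. In replicates 1 and 2 it was 1.43 ± 0.12, the largest rise among the 6 members tested, with an adjusted p of 3.38e-06. Without GFP replicate 3 alone it was 1.33 with an adjusted p of 0.00510, which was past the threshold.

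ERBB2 (ENSG00000141736, 17:37844167-37886679 on the plus strand), the partner receptor, was measured at 85.5, 84.8 and 77.0 CPM in GFP and 77.1, 68.4 and 86.3 CPM in POU5F1B libraries. The groups overlapped, and both the highest and the lowest value came from POU5F1B cells. The means were 82.4 ± 4.72 and 77.3 ± 8.97 CPM (SD, n = 3 each). The log2 fold change was −0.10 ± 0.13 with an interval of −0.40 to 0.21 and an adjusted p of 0.802 by limma voom. For replicates 1 and 2 alone it was −0.24 ± 0.099 with an interval of −0.45 to −0.02 and an adjusted p of 0.0908, so both intervals leave out a change of 2-fold in either direction. The study's text names the ERBB2 protein among those that POU5F1B binds. It also reports this binding from SW480 cells, by co-immunoprecipitation. ERBB4 (ENSG00000178568, 2:212240442-213403565 on the minus strand), the other neuregulin receptor, had 0 counts in all 6 libraries, which allows up to 0.279 CPM at the shallowest depth.

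Among the ligands, TGFA had the most counted reads per length in every library and was higher in POU5F1B replicates 1 and 2. HBEGF overlapped between the groups, and EREG, AREG and BTC were high in the libraries numbered 3 of either group. Reads that fit both AREG and its AREGB copy were not counted, so the place of AREG in this order is uncertain. None of the 3 ligands that could be tested passed the threshold across all 6 libraries, and in replicates 1 and 2 only TGFA did.

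TGFA (ENSG00000163235, 2:70674416-70781325 on the minus strand), transforming growth factor alpha, a ligand of EGFR, was at 50.5, 53.3 and 86.8 CPM in GFP and 110, 118 and 80.1 CPM in POU5F1B libraries. GFP replicate 3 lay above POU5F1B replicate 3, so the groups overlapped, whereas replicates 1 and 2 were clearly separate. The means were 63.5 ± 20.2 and 103 ± 20.0 CPM (SD, n = 3 each). On the log2 scale the fold change was 0.72 ± 0.25 with an interval of 0.13 to 1.31 and an adjusted p of 0.348 by limma voom. In replicates 1 and 2 it was 1.12 ± 0.097 with an adjusted p of 5.45e-06.

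HBEGF (ENSG00000113070, 5:139712428-139726188 on the minus strand), heparin-binding EGF-like growth factor, which binds EGFR and ERBB4, was at 12.2, 12.2 and 22.7 CPM in GFP and 12.4, 13.3 and 15.6 CPM in POU5F1B libraries. GFP replicate 3 was the one high library, and the other 5 lay within a narrow range. The log2 fold change was −0.12 ± 0.29 with an interval of −0.81 to 0.56 and an adjusted p of 0.894 by limma voom, and without GFP replicate 3 it was 0.15. In replicates 1 and 2 the interval of −0.31 to 0.42 left out a 2-fold change.

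EREG (ENSG00000124882, 4:75230862-75254466 on the plus strand), epiregulin, a ligand of EGFR and ERBB4, had 29, 33 and 1090 counts in GFP and 19, 23 and 206 counts in POU5F1B libraries, or 2.44, 2.51 and 94.8 CPM against 1.49, 2.13 and 17.1 CPM. The 2 libraries numbered 3 were the highest, each in its own group and over both groups. GFP replicate 3 held 38.3 times the mean CPM of GFP replicates 1 and 2, POU5F1B replicate 3 held 9.46 times that of POU5F1B replicates 1 and 2, and GFP replicate 3 held 5.53 times the level of POU5F1B replicate 3. The spread within a group therefore exceeded the group means of 33.3 ± 53.3 and 6.93 ± 8.86 CPM (SD, n = 3 each). This gave a log2 fold change of −1.08 ± 1.68 with an interval of −5.08 to 2.91 and an adjusted p of 0.833 by limma voom. Without GFP replicate 3, and with the high POU5F1B replicate 3 kept, the value was 0.60. Without both libraries numbered 3 it was −0.49 with an interval of −1.23 to 0.25 and an adjusted p of 0.304.

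AREG (ENSG00000109321, 4:75310853-75320722 on the plus strand), amphiregulin, a ligand of EGFR, had 2, 5 and 28 counts in GFP and 1, 1 and 11 counts in POU5F1B libraries. BTC (ENSG00000174808, 4:75669969-75719733 on the minus strand), betacellulin, a ligand of EGFR and ERBB4, had 1, 2 and 25 counts in GFP and 0, 1 and 9 in POU5F1B libraries. For both genes the libraries numbered 3 again held the highest count of their group, and GFP replicate 3 the highest of all. AREG counts are uncertain in a further way. Of the 1185 stretches of 50 bases in its 1234-base transcript, 95.8% also occur in the AREGB copy, and reads that fit both places were not counted. The AREGB copy itself had 0, 0 and 4 counts in each group. Both genes were too low for the filter, and with no filter the log2 fold changes were −1.24 for AREG and −1.17 for BTC, both with an adjusted p of 0.761 by limma voom.

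EGF (ENSG00000138798, 4:110834039-110934922 on the plus strand), epidermal growth factor, lies elsewhere on chromosome 4 and had 1, 0 and 2 counts in GFP and 7, 2 and 6 in POU5F1B libraries. The groups met at 2 counts, EGF was near the limit of detection in every library, and it did not pass the filter. With no filter its log2 fold change was 2.07 with an adjusted p of 0.476 by limma voom, a value that depends on the few counts behind it.

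**Figure D1:**
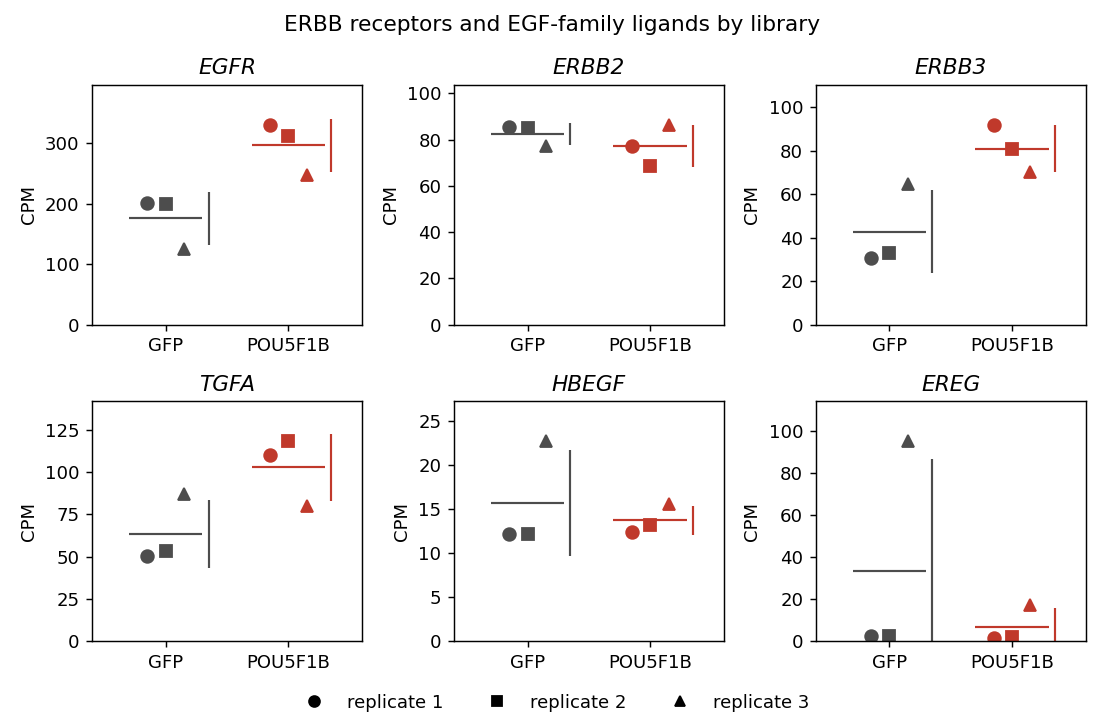
Levels of the 6 members tested, in CPM on axes from 0, with 1 point per library, a horizontal line at the group mean and a vertical line for 1 SD either side, cut at 0. EGFR and ERBB3 do not overlap between groups and are higher in POU5F1B cells, as 10.2% of all tested genes are. GFP replicate 3 holds the highest EREG and HBEGF levels.

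Of the 10 genes, 6 passed the filter on low counts, and ERBB4, AREG, BTC and EGF did not. By limma voom across all 6 libraries 0 of the 6 passed the threshold of an adjusted p under 0.05 and more than 2-fold, and the share of all tested genes that passed was also 0%. EGFR, ERBB3 and TGFA had an unadjusted p under 0.05 (0.00932, 0.00956 and 0.0240), against 11.9% of all tested genes. By the quasi-likelihood test of edgeR and by DESeq2, which called 1.62% of all genes and gave no adjusted p for EREG, 0 members passed. Non-overlapping groups with the higher values in POU5F1B cells were seen for EGFR and ERBB3 among those tested, against 10.2% of all tested genes, and none of the 6 lay wholly lower, against 9.24%. For replicates 1 and 2 alone, ERBB3 and TGFA passed as higher, against 3.21% of all genes, and no member as lower, against 5.15%. EGFR joined them at an adjusted p under 0.05 irrespective of fold, a limit that 29.7% of all genes passed. When voom weighted the libraries by quality (0.111 for GFP replicate 3, 0.575 for POU5F1B replicate 3 and 1.23 to 2.79 for the others), ERBB3 and TGFA passed and so did 7.54% of all genes. Without GFP replicate 3, ERBB3 passed alone, among 4.16% of all genes. The median log2 fold change of the 6 was 0.31 across all libraries and 0.36 in replicates 1 and 2, against −0.02 and −0.005 over all genes. The part of the libraries numbered 3 in these results beyond what leaving them out shows was not tested.

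**Figure D2:**
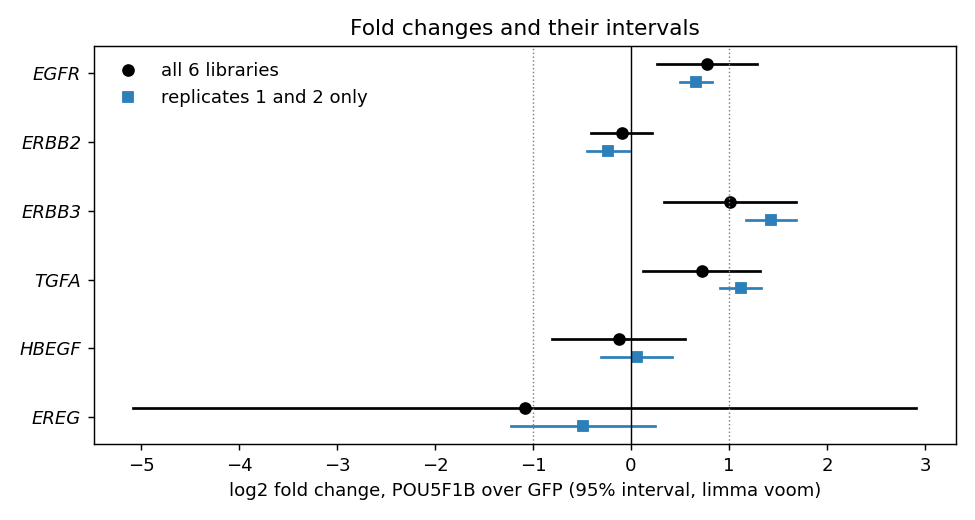
Log2 fold change of POU5F1B over GFP cells with its 95% interval by limma voom, from all 6 libraries (circles) and from replicates 1 and 2 only (squares); dotted lines mark 2-fold. ERBB3 rises by 1.43 and TGFA by 1.12 in replicates 1 and 2, and the EREG interval from all libraries runs from −5.08 to 2.91.

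Libraries that carry the same number were also compared, although the labels do not say that a number marks a shared culture. For EGFR the log2 difference was 0.71, 0.64 and 0.97 in numbers 1, 2 and 3, positive and of similar size each time. ERBB3 gave 1.58, 1.30 and 0.12, and TGFA gave 1.12, 1.15 and −0.12. For both, numbers 1 and 2 were alike and number 3 was near 0. POU5F1B replicate 3 was also the library with the fewest POU5F1B counts of its group, and the part of that in these values was not tested. ERBB2 stayed within −0.31 and 0.16. HBEGF gave 0.024, 0.12 and −0.54. EREG was lower in POU5F1B cells under every number, by log2 values of −0.65, −0.22 and −2.46, the first and second from 19 to 33 counts per library. EGFR was thus the one receptor whose difference was as large between the libraries numbered 3 as in the others.

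**Figure D3:**
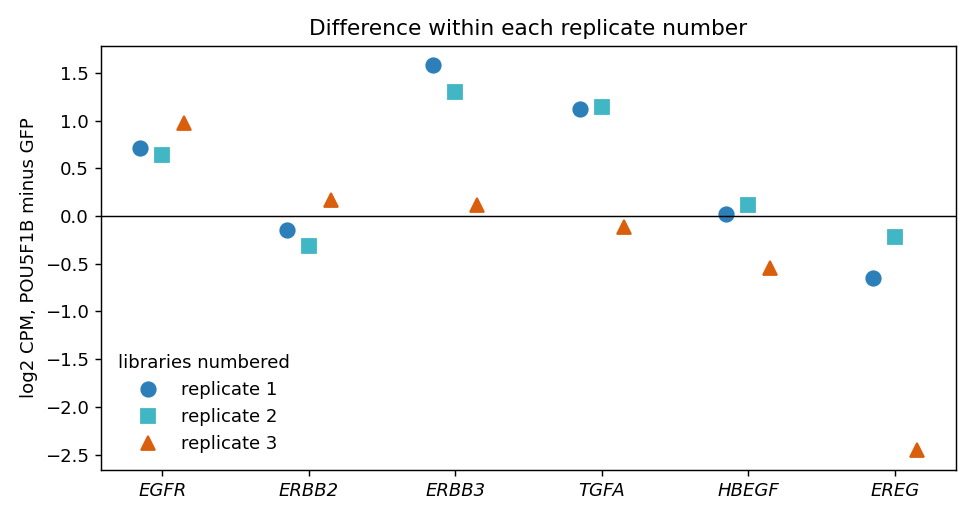
Log2 CPM of each POU5F1B library minus that of the GFP library with the same replicate number, for the 6 members tested. The EGFR points lie between 0.64 and 0.97, whereas number 3 lies near 0 for ERBB3 and TGFA and at −2.46 for EREG.

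Levels were compared between genes as CPM per kilobase of annotated exon. Reads that AREG shares with its AREGB copy were not counted, so the AREG level may be too low. In GFP cells the order of mean levels was TGFA (12.9 ± 4.11), EGFR (11.0 ± 2.72), ERBB2 (7.99 ± 0.457), EREG (5.82 ± 9.33), HBEGF (5.25 ± 2.03) and ERBB3 (3.65 ± 1.63), with AREG, BTC and EGF at 0.606 CPM per kb or less (SD, n = 3). The spread of EREG covers all of its neighbours, and TGFA and EGFR, and likewise HBEGF and ERBB3, lay within 1 SD of each other. The order was different in GFP replicates 1 and 2. There EGFR (12.6 and 12.6) lay above TGFA (10.3 and 10.8), and EREG (0.428 and 0.440) was the lowest of the 6 members tested. In POU5F1B cells the order was TGFA (20.9 ± 4.07), EGFR (18.6 ± 2.74), ERBB2 (7.49 ± 0.869), ERBB3 (6.91 ± 0.929), HBEGF (4.60 ± 0.545) and EREG (1.21 ± 1.55). The means of TGFA and EGFR, and likewise of ERBB2 and ERBB3, lay within 1 SD of each other there. Within each POU5F1B library TGFA lay above EGFR, at 22.4, 24.0 and 16.3 against 20.7, 19.6 and 15.5. ERBB2 lay below ERBB3 in POU5F1B replicates 1 and 2 and above it in replicate 3.

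Among receptors, EGFR took 53.7%, 53.2% and 37.8% of the summed level per kilobase in GFP and 57.5%, 59.1% and 51.9% in POU5F1B libraries. The share of ERBB2 was 35.2%, 34.9% and 35.8% in GFP and 20.8%, 20.0% and 28.0% in POU5F1B libraries, so every POU5F1B library had the lower share although the ERBB2 level itself overlapped. ERBB3 took 11.1%, 11.9% and 26.5% in GFP and 21.8%, 20.9% and 20.1% in POU5F1B libraries. The summed receptor level was 20.9 to 23.6 CPM per kb in GFP and 29.8 to 36.0 in POU5F1B libraries.

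Among ligands, TGFA made up 68.8% and 69.3% of the summed level per kilobase in GFP replicates 1 and 2 and 83.1% and 83.0% in POU5F1B replicates 1 and 2. Replicate 3 had 40.0% in GFP and 64.1% in POU5F1B cells. The EREG share was 37.6% in GFP replicate 3 and 11.8% in POU5F1B replicate 3, against 0.972% to 2.86% in the other 4 libraries. HBEGF held 15.3% to 27.3% throughout, with 20.5% in POU5F1B replicate 3 against 15.4% and 15.3% in POU5F1B replicates 1 and 2. The TGFA level itself was also lower in POU5F1B replicate 3, at 16.3 CPM per kb against 22.4 and 24.0 in replicates 1 and 2. The lower TGFA share there thus went with more than the EREG level. In GFP replicate 3, EREG at 16.6 CPM per kb was nearly as high as TGFA at 17.7. All these ligand shares leave out the reads that AREG shares with AREGB, so the shares of the other ligands may be too high.

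Some, but not all, of the 9 colorectal epithelial markers were highest in the same libraries as EREG, AREG and BTC. By CPM, 5 of them (KRT8, KRT18, CDX2, VIL1 and CDH17) were highest in replicate 3 of both groups. Another 3 (EPCAM, CDH1 and KRT19) were highest in GFP replicate 3 but lowest in POU5F1B replicate 3, and LGALS4, with 0 to 9 counts, was highest in replicate 3 of neither. VIL1, which encodes the brush-border protein villin, had 274, 184 and 2420 counts in GFP and 543, 406 and 1332 in POU5F1B libraries. EPCAM, an epithelial adhesion molecule, had 1030, 1174 and 5962 counts in GFP and 4073, 3569 and 3029 in POU5F1B libraries, and CDH1, which encodes E-cadherin, had 400, 396 and 836 against 2085, 1711 and 1181. EPCAM and CDH1 thus resembled ERBB3 and TGFA in part, high in POU5F1B replicates 1 and 2 and with GFP replicate 3 above its group. For EPCAM, unlike ERBB3 and TGFA, GFP replicate 3 at 519 CPM also lay above every POU5F1B library, at 252 to 331 CPM. VIL1 and CDH17, picked from the list after their values were seen, resembled EREG in that both libraries numbered 3 led. What part the state of the libraries numbered 3 had in the EREG, AREG and BTC counts was not tested.

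**Figure D4:**
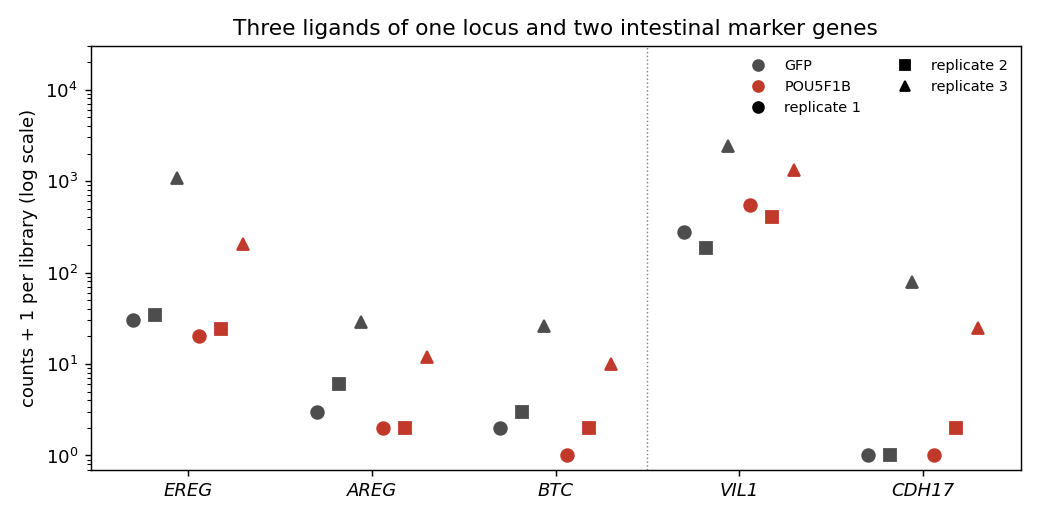
Counts plus 1 per library on a log axis for the ligands EREG, AREG and BTC, and for VIL1 and CDH17, a pair of markers picked after their values were seen. Triangles, the libraries numbered 3, are the highest of their group for all 5 genes, with EREG at 1090 counts in GFP replicate 3.

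By Pearson correlation of log2 CPM over the 6 libraries, the genes most like EREG were BICC1 (r = 0.999), RPL27A (0.999) and BCL7A (0.998). BICC1, an RNA-binding protein gene, had 10, 10 and 108 counts in GFP and 7, 8 and 33 in POU5F1B libraries, so the libraries numbered 3 led here too. RPL27A, a ribosomal protein gene, spanned 819 to 1149 CPM. Those most like ERBB2 were SBF1 (0.993), RPS9 (0.988) and GRIP2 (0.987). RPL27A and RPS9 have processed copies in the genome, which makes their unique counts uncertain. These values describe 6 libraries of which 2 stand apart, and the genes were picked as the highest of all tested.

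The other ligands of the family were mostly undetected or low. NRG3 had 0 counts in all 6 libraries and NRG4 had 0 to 8. NRG1, a neuregulin that binds ERBB3, had 35, 41 and 6 counts in GFP and 3, 4 and 11 in POU5F1B libraries. Its level was lower in POU5F1B replicates 1 and 2 and not in replicate 3. The log2 fold change was −1.90 ± 0.88 with an adjusted p of 0.453 by limma voom, and in replicates 1 and 2 it was −3.21 ± 0.48 with an adjusted p of 0.000352. The receptor ERBB3 and its ligand NRG1 thus moved in opposite directions in those 4 libraries. NRG2, with 58, 53 and 26 counts against 42, 19 and 47, had a log2 fold change of −0.31 and an adjusted p of 0.806. In replicates 1 and 2, NRG2 had −0.85 with 0.0708.

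For proteins that cut or carry the ligand precursors, 9 of 10 listed genes were tested. Across all 6 libraries 0 were called, 3 had positive and 6 negative log2 fold changes, and the median was −0.11. Over all tested genes, 6706 were positive and 7580 negative. In replicates 1 and 2 the list turned to 5 positive and 4 negative, with a median of 0.12. ADAM17, the main protease that sheds TGFA, AREG, EREG and HBEGF, had a value of 0.20 and an adjusted p of 0.531 by limma voom, and RHBDF2, which helps mature ADAM17, had 0.30 and 0.531. In replicates 1 and 2, ADAM17 had 0.28 with an adjusted p of 0.0411, and RHBDF2 had 0.30 with 0.169. TMED10, a cargo receptor of the early secretory pathway, had −0.41 with an adjusted p of 0.401, and −0.63 with an adjusted p of 8.74e-05 in replicates 1 and 2. In those libraries 3 of the 9 passed an adjusted p of 0.05, near the 29.7% of all genes, and 0 passed 2-fold as well.

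All 16 genes of the adaptors and the RAS-ERK cascade were tested and 0 were called in all libraries. In replicates 1 and 2 the count was also 0, where 3.21% of all genes were called higher and 5.15% lower, so a count of 0 among so few genes is near the background. Their median log2 fold change was −0.05, with 6 positive and 10 negative. Among those with the smallest unadjusted p values, the kinase genes MAP2K1 and BRAF had log2 fold changes of 0.22 (adjusted p = 0.489) and −0.35 (adjusted p = 0.649) by limma voom. In replicates 1 and 2, MAP2K1 had 0.26 (adjusted p = 0.0722) and BRAF −0.03 (adjusted p = 0.898). In the PI3K arm 8 of 9 genes were tested, 0 were called, 1 was positive and 7 negative, and the median was −0.23. In replicates 1 and 2, 2 were positive and 6 negative, and the median was −0.12. PIK3R1, the regulatory subunit that docks PI3K to phosphorylated receptors, was at 34.0, 35.4 and 73.1 CPM in GFP and 21.0, 24.4 and 19.9 CPM in POU5F1B libraries. The groups did not overlap, with a log2 fold change of −1.03 ± 0.34 and an adjusted p of 0.328. Of all tested genes, 9.24% lay wholly lower in this way. In replicates 1 and 2, PIK3R1 had −0.63 ± 0.13 with an adjusted p of 0.00360. AKT2, a kinase gene downstream of PI3K, gave −0.28 with an adjusted p of 0.466, and −0.45 with 0.00223 in replicates 1 and 2.

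Of the 15 genes of receptor inhibition and turnover, 14 were tested. Across all 6 libraries 0 were called, 10 had positive and 4 negative values, and the median was 0.19. In replicates 1 and 2 the median was 0.08, and 2 genes, ERRFI1 and CBLC, were called higher, against 3.21% of all genes. ERRFI1, which encodes MIG6, a protein that binds and inhibits the EGFR kinase and is itself induced by receptor signalling, was at 25.0, 23.8 and 37.7 CPM in GFP and 73.9, 71.3 and 39.0 CPM in POU5F1B libraries. The groups did not overlap, yet the libraries numbered 3 were nearly equal, as for ERBB3. Of all tested genes, 10.2% lay wholly higher in POU5F1B libraries. On the log2 scale the fold change was 1.07 ± 0.32 with an adjusted p of 0.298 by limma voom, and 1.56 with an adjusted p of 1.68e-06 in replicates 1 and 2. CBLC, a ubiquitin ligase gene of the CBL family, was low, with 7, 8 and 25 counts in GFP and 25, 16 and 24 in POU5F1B libraries. It had 0.95 with an adjusted p of 0.516, and 1.45 with 0.0251 in replicates 1 and 2. The latter value rests on these few counts, and the libraries numbered 3 were nearly equal. SOCS4 had −0.77 with an adjusted p of 0.472, and −0.23 with 0.278 in replicates 1 and 2.

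The output and feedback genes of ERK signalling held 18 tested genes, 13 with positive and 5 with negative log2 fold changes and a median of 0.22. None was called, and 6 had an unadjusted p under 0.05, of which 4 were positive and 2 negative, against 11.9% of all tested genes. DUSP5, a nuclear ERK phosphatase gene, was at 63.9, 58.4 and 64.2 CPM in GFP and 104, 99.5 and 94.2 CPM in POU5F1B libraries. Its groups were well separated in every library, the libraries numbered 3 included, and 10.2% of all tested genes lay wholly higher. The log2 fold change was 0.67 ± 0.11 with an adjusted p of 0.185 by limma voom, and 0.72 with 0.000168 in replicates 1 and 2. IER3, an immediate early gene, had 0.58 ± 0.17 with an adjusted p of 0.297, and 0.67 with 0.000167 in replicates 1 and 2.

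DUSP4, another ERK phosphatase gene, moved the other way, with 87.9, 70.0 and 53.2 CPM in GFP and 13.2, 9.55 and 46.9 CPM in POU5F1B libraries. POU5F1B replicate 3 lay just under the GFP range. This gave a log2 fold change of −1.92 ± 0.52 with an adjusted p of 0.269 by limma voom, and −2.79 with 7.89e-07 in replicates 1 and 2. In replicates 1 and 2, 14 of the 18 genes had an adjusted p under 0.05, against 29.7% of all genes. Of the 14, 9 were higher and 5 lower, and FOSL1, which encodes a subunit of AP-1 (higher), and DUSP4 (lower) also passed 2-fold. Across all 6 libraries, FOSL1 had 0.59 with an adjusted p of 0.524 by limma voom. Its groups overlapped, with the highest level, 171 CPM, in GFP replicate 3. The list thus moved in both directions. Its genes were drawn up with earlier results of these data known, and nothing particular to it is read from the counts.

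**Figure D5:**
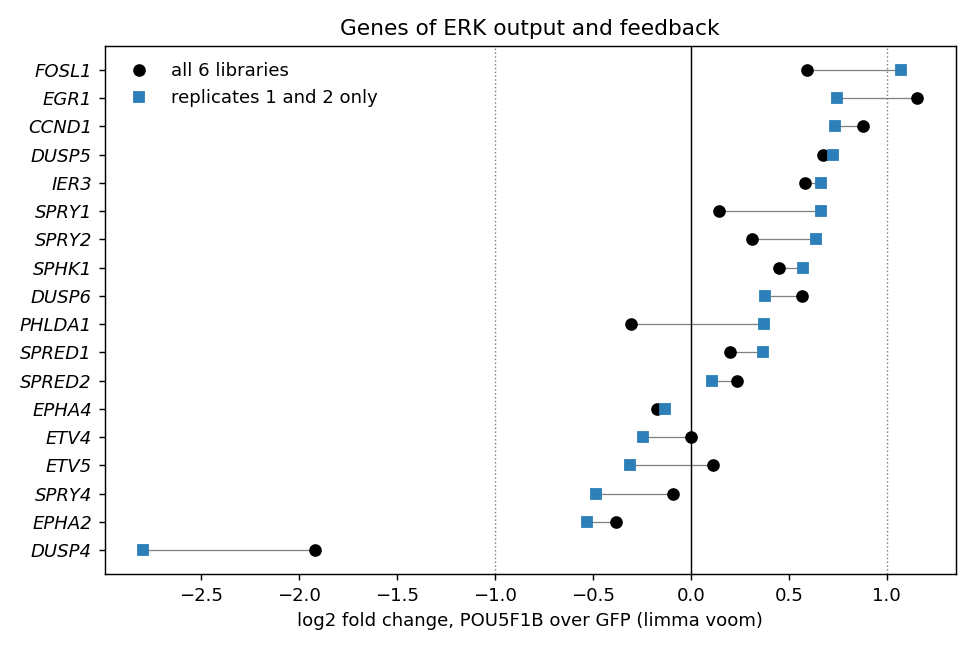
Log2 fold change of POU5F1B over GFP cells by limma voom for the 18 genes of ERK output and feedback, from all 6 libraries (circles) and from replicates 1 and 2 only (squares), with dotted lines at 2-fold. DUSP4 stands lowest at −1.92 and −2.79, and DUSP5 is alike in both at 0.67 and 0.72.

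The study's text names 6 proteins bound by POU5F1B that are known interactors of ERBB2. Their binding was measured as protein in HT29 and LS1034 cells, other colorectal cancer lines, and not in SW480. The RNA of all 6 was tested here in SW480, with 0 called, 5 positive and 1 negative value and a median of 0.28. MST1R, a receptor kinase gene, was at 39.5, 36.8 and 56.7 CPM in GFP and 76.8, 70.8 and 59.0 CPM in POU5F1B libraries, with a log2 fold change of 0.66 and an adjusted p of 0.303 by limma voom. In replicates 1 and 2, MST1R had 0.94 with an adjusted p of 5.50e-05. SORL1, a sorting receptor that steers ERBB2 traffic, was at 243, 236 and 239 CPM in GFP and 113, 106 and 204 CPM in POU5F1B libraries. SORL1 was lower in every POU5F1B library, least in replicate 3, and 9.24% of all tested genes lay wholly lower. Its log2 fold change was −0.83 with an adjusted p of 0.296, and −1.14 with 1.43e-06 in replicates 1 and 2. POLR1A, the large subunit of RNA polymerase I, had 0.40 with an adjusted p of 0.345, and 0.46 with 0.00169 in replicates 1 and 2.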

How the data were processed

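PolyA RNA of 3 GFP and 3 POU5F1B SW480 libraries was sequenced from a stranded kit. The authors deposited whole-number read counts per Ensembl gene for each library, without normalization. Per the submitters' processing notes and the study's methods, reads were mapped to hg19 with HISAT2 and counted with featureCounts, keeping uniquely mapped reads, so genes with a near-identical copy lose reads. The strand setting of the counting is not given in the sources used here. Groups and replicate numbers came from the sample titles.

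Symbols were found for 87.4% of 63677 identifiers. The filter was filterByExpr (edgeR 4.0.16), which kept 14286 genes. Counts were scaled by TMM and tested with voom in limma 3.58.1 (R 4.3.3), with Benjamini-Hochberg adjustment over all of them; called genes had an adjusted p-value under 0.05 and over 2-fold. CPM values use the TMM-scaled sizes, with a prior count of 2 before logs. Intervals are 95% and not adjusted over genes. The floor of 3 counts covers counting error only. Alternatives were the edgeR quasi-likelihood test, DESeq2 1.42.0, sample quality weights, DESeq2 size factors or upper quartile scaling, filters of at least 1 count in total or 10 in every library, the replicate number as a block, leaving out each library, and replicates 1 and 2 only. The scripts were tested on simulated counts. Named were all members, the other ligands, the 3 genes of smallest p in each list and the 3 most like EREG and ERBB2. Some genes that this rule names are not reported here. FOSL1 and the marker genes described singly were named after their values were seen. The members, lists and settings were chosen with earlier results of these data known.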

Additional observations from a re-analysis of the deposited data

How the results depend on the processing

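The count of members called moved from 0 to 2 with sample quality weights (ERBB3 at 1.40 and TGFA at 1.03) and to 2 with replicates 1 and 2 only (ERBB3 at 1.43 and TGFA at 1.12), and ranged from 0 to 1 when each library was left out, the 1 being ERBB3 without GFP replicate 3 at 1.33. The edgeR and DESeq2 tests, the other scalings and the other filters left it at 0. Direction reversed for HBEGF, at 0.072 with sample quality weights and 0.058 with replicates 1 and 2 only, and from −0.27 to 0.15 over the libraries left out. It also reversed for EREG over the libraries left out, from −2.19 to 0.60, with 0.60 without GFP replicate 3. The cause was not tested. Over the 6 members and their alternatives, 81 of 90 values kept their direction and side of the threshold, 5 passed it and 4 reversed. With the replicate number as a block, 0 members were called, and EREG had −1.81 with an adjusted p of 0.327, EGFR 0.77, ERBB3 0.97, TGFA 0.71, HBEGF −0.16 and ERBB2 −0.10. The numbers were not shown to pair libraries, since same-number correlations of deviations from the group mean were 0.242, 0.0883 and 0.165, and GFP replicate 2 correlated more with POU5F1B replicate 1 (0.250) than with its own number. Depth limits ERBB4, BTC and EGF, with at most 25 counts in a library. AREG, with at most 28 counts, is limited as well by the reads it shares with AREGB, which were not counted. The spread among 3 libraries limits the 6 members tested.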
